A study of Mus musculus with 9 samples.

Results

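Of the 10 genes described here, Ezh1, Ezh2, Eed, Suz12 and Jarid2 encode core and accessory proteins of Polycomb repressive complex 2, PRC2. The others encode the Smyd family of SET and MYND domain proteins (Smyd1, Smyd2, Smyd3, Smyd4 and Smyd5). All 10 genes were picked out by gene symbol, with earlier results of these data known. The platform annotation named exactly one of them for 11 probe sets, 2 for Eed and 1 for each other gene, and the probe set with the highest mean stood for the gene. All 10 of 10 were found among 19938 genes with such a probe set, and all 10 were among the 16582 genes tested after a filter on low values. Gene expression was measured on Affymetrix arrays in primary myoblasts, the dividing precursors of skeletal muscle fibres, isolated from the muscle of Balb/c mice of wild-type genotype. The groups, of 3 arrays each, were cycling myoblasts at 0 days, and myotubes that had spent 2 days or 5 days in differentiating medium. That medium is known from the titles, whereas the growth protocol of every sample lists one serum-rich medium with growth factor. The labels give no age or number of animals, and do not tell whether the 3 arrays of a group stand for separate cultures or animals. The p-values therefore rest on array-to-array spread alone, and that spread may be technical. The probe sets used were 10544501 for Ezh2, 10391378 for Ezh1, 10565486 for Eed, 10379346 for Suz12, 10404848 for Jarid2, 10545283 for Smyd1, 10361007 for Smyd2, 10360563 for Smyd3, 10378555 for Smyd4 and 10539592 for Smyd5.

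PRC2 places methyl groups on lysine 27 of histone H3, a mark of silenced genes. Ezh1 and Ezh2 are its alternative catalytic subunits, Eed binds the mark and stimulates the enzyme, Suz12 is the scaffold, and Jarid2 is a cofactor that helps bring the complex to chromatin. Ezh2 is typical of dividing cells and Ezh1 of resting and differentiated ones, and in mouse muscle cells Ezh2 is known to hold muscle genes silent before differentiation. Smyd1 is a striated-muscle protein needed for myofibril assembly, Smyd2 and Smyd3 methylate histone and non-histone proteins, Smyd5 has been linked to histone methylation, and the role of Smyd4 in mouse muscle is less defined.

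The promoter windows of Ezh2, Suz12, Ezh1 and Smyd1 are printed because these genes carry the main contrasts in the results: Ezh2 and Suz12 were lower in myotubes, and Ezh1 and Smyd1 were higher. Each runs 5′ to 3′ on the gene's strand, from 250 bases before to 50 bases after the start site in RefSeq's table for GRCm38.p6. The windows lie at chr6:47594981-47595280 on the minus strand for Ezh2, chr11:79992856-79993155 on the plus strand for Suz12, chr11:101226414-101226713 on the minus strand for Ezh1 and chr6:71262232-71262531 on the minus strand for Smyd1. Capitals mark the matches of the searched motifs on either strand.
Ezh2: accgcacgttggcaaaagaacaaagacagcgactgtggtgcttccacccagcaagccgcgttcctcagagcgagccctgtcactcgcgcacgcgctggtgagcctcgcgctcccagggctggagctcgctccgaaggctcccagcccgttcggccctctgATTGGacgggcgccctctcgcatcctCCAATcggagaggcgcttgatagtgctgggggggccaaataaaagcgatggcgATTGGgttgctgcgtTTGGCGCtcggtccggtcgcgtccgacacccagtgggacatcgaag
Suz12: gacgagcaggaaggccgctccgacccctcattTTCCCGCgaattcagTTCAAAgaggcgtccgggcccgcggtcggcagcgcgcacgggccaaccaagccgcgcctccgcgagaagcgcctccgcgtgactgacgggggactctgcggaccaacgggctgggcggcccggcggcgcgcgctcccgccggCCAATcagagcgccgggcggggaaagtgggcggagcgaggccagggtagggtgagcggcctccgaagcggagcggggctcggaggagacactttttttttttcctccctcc
Ezh1: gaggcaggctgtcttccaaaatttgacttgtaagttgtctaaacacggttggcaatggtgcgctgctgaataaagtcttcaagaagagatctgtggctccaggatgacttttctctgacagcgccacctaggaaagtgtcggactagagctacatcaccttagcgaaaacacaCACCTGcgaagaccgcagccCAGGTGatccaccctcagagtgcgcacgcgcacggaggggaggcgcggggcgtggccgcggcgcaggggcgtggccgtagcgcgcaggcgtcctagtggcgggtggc
Smyd1: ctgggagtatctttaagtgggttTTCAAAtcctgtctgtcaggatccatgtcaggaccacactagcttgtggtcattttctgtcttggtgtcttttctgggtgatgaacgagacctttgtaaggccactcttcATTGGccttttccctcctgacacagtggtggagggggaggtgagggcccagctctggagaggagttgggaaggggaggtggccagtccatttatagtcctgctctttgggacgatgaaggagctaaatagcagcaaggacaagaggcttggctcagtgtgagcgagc
The motifs TTCCCGC and TTGGCGC are forms of the E2F site, CCAAT is the box bound by NF-Y, and TTTGAA is a form of the cell cycle homology region. The E-box, CANNTG, is the core site of myogenic factors such as MyoD. These, the MEF2 site and the CArG box were searched on both strands. No 2 of the matches overlapped in these 4 windows.

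TTGGCGC was found in the Ezh2 window from base 5 to base 11 after the start site, and 2.45% of all 32851 windows of this length held it. TTCCCGC was found in the Suz12 window from base -218 to base -212, and 4.60% of all windows held it. The Ezh2 window held CCAAT at 3 places and the Suz12 window at 1, against 37.4% of all windows with at least 1. The Ezh1 window held 2 E-boxes and none of the other motifs, whereas 72.3% of all windows held an E-box. The Smyd1 window held CCAAT and TTTGAA once each, and 17.9% of all windows held TTTGAA. Windows were at hand for 9 of the 10 genes, 10 windows in all because Jarid2 had 2. CCAAT occurred in 8 of these 10 windows, E-boxes in 5, TTTGAA in 3, each E2F form in 1, and the MEF2 site and the CArG box in 0, against 3.19% and 1.63% of all windows. A match is a stretch of letters in the window and was not tested for binding.

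Values are log2 RMA values, which the authors normalized per set of replicates. By the identical values described with the processing, these sets were the time points. Each is therefore given as deposited and on a common scale, that is after quantile normalization of all 9 arrays. A gene is said to rise or fall where limma's adjusted p was under 0.05 and the change at least 2-fold, a log2 fold change of 1 in size, in one direction on both scales. Where 2 fold changes stand together, the first is as deposited and the second on the common scale. The array medians were 4.33 to 4.35 in cycling myoblasts, 4.26 at day 2 and 3.98 to 3.99 at day 5 as deposited. At day 5 against cycling myoblasts the median log2 fold change over all tested genes was -0.37 in the deposited values and 0.17 after common scaling. Many deposited values were identical between replicates, which held for 20 of the 30 sets of 3 values of the members. SDs of 0 and very small p-values come with that, so sizes are given first. Where values are identical within groups, any difference of means leaves the groups without overlap. The share of all tested genes without overlap is not given here, so a lack of overlap is description only. The deposited values of Ezh2, Eed and Jarid2 were identical within every group. Their spread on the common scale thus came from the scaling, and their SE and p do not measure variation between replicates. Each other member had identical deposited values in at least 1 group. The SE and p of these members rest mainly on the remaining groups and understate the variation between replicates. All members lay above the array median on every array.

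All 4 listed myotube markers, Myog, Ckm, Myh3 and Acta1, rose at day 2, and all 6 cycling cell markers fell. Of the 4 myoblast markers, Pax7 and Myf5 fell and Des rose at day 2. Myod1 had log2 fold changes of -0.96 and -0.93 at day 2, short of 2-fold, and fell at day 5 with -2.04 and -1.43. The summed level of the cycling markers was 11.71 to 11.75 (log2, as deposited) in cycling myoblasts, 8.50 to 8.55 at day 2, then 8.10 at day 5. In myotubes that sum was mostly Pcna, which averaged 8.15 at day 2 and 7.69 at day 5. There Mki67, Top2a and Ccna2 averaged between 2.87 and 3.85, below the array medians. Mcm5 and E2f1 lay above the medians, with 4.90 and 4.46 at day 2 and 4.56 and 4.11 at day 5. Among the 5 fibroblast markers Col3a1 fell, with a mean of 6.06 at day 2 and 4.77 at day 5, against 8.92 in cycling myoblasts. Pdgfra lay between 3.67 and 4.36. Thy1 averaged 5.03 in cycling myoblasts, 4.69 at day 2, then 4.68 at day 5, and Col1a1 5.35, 5.27 and 4.96. Dpt, which was not tested, averaged 2.46, 2.64 and 2.66 in the same order, below the array medians. At day 5 the median log2 fold change of the 4 tested fibroblast markers was -0.37 as deposited and 0.40 after common scaling. The summed level of the 5 fibroblast markers, as deposited, was 9.17 to 9.20 in cycling myoblasts, 7.23 at day 2, then 6.79 at day 5. The drop of that sum was mostly the drop of Col3a1. The part of these changes, or of the fall in the cycling markers, in the members' values was not tested. The endothelial and macrophage markers Pecam1, Cdh5, Kdr, Ptprc and Adgre1 averaged between 2.46 and 3.57 in every group, below the array medians. Of the other macrophage markers, Csf1r averaged 2.95 in cycling myoblasts, 3.85 at day 2, then 3.00 at day 5, also below the medians. Cd68 averaged 4.82 in cycling myoblasts, above the median, and lay below it with 3.99 at day 2, then 3.81 at day 5. The summed levels of the endothelial, macrophage and adipocyte lists lay between 4.84 and 5.62 in every group. Of the adipocyte markers, Plin1 averaged 4.46 in cycling myoblasts, 4.41 at day 2, then 4.26 at day 5, above the medians. Adipoq and Fabp4 averaged between 2.13 and 3.09, below them. The Schwann marker Sox10 averaged 4.23 in cycling myoblasts, below the median, and lay above it with 4.37 at day 2, then 4.14 at day 5. In bulk samples fewer cells of a type and less RNA per cell cannot be told apart.

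Of the PRC2 genes, Ezh2 showed the largest change against cycling myoblasts at both times. Suz12 changed slightly more from day 2 to day 5, with log2 fold changes of -1.53 and -0.80. Ezh2 had 9.74 on all 3 arrays of cycling myoblasts, 7.17 on all 3 at day 2 and 5.70 on all 3 at day 5 as deposited. After common scaling it had 9.47, 9.40 and 9.40 in cycling myoblasts, a mean of 7.01 ± 0.0018 (SD, n = 3) at day 2, and 6.26, 6.24 and 6.23 at day 5. The groups did not overlap on either scale, and every later array lay below every earlier one. Against cycling myoblasts the log2 fold change of Ezh2 at day 2 was -2.57 as deposited and -2.42 ± 0.018 (SE, n = 3 each) after common scaling, 5.93-fold and 5.34-fold lower (limma adjusted p = 2.84e-12 on the common scale). At day 5 it was -4.04 and -3.18, or 16.4-fold and 9.05-fold lower (limma adjusted p = 4.32e-13 on the common scale). With identical deposited values within each group, the SE and adjusted p of Ezh2 do not measure variation between replicates. Only 1.70% of tested genes as deposited and 1.51% on the common scale had a lower log2 fold change than Ezh2 at day 2, and 0.959% and 1.25% at day 5. From day 2 to day 5 Ezh2 was lower by 1.47 as deposited, and its log2 fold change on the common scale was -0.76, short of 2-fold.

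Ezh1, the alternative catalytic subunit, was the one PRC2 gene called higher in myotubes at both times. Its deposited values were 6.33, 6.38 and 6.38 in cycling myoblasts, 6.83 on all 3 arrays at day 2 and 6.64 on all 3 at day 5. After common scaling they were 5.93, 5.96 and 5.96 in cycling myoblasts, 6.68 on all 3 at day 2, and 7.21, 7.20 and 7.19 at day 5. Both myotube groups lay above cycling myoblasts on both scales, without overlap. The log2 fold change was 0.46 and 0.73 at day 2 and 0.27 and 1.25 at day 5, as deposited and on the common scale. It passed limma's adjusted p in every one of these cases, and reached 2-fold only on the common scale at day 5. From day 2 to day 5 the direction depended on the scale, with -0.19 as deposited and 0.52 after common scaling.

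**Figure D1:**
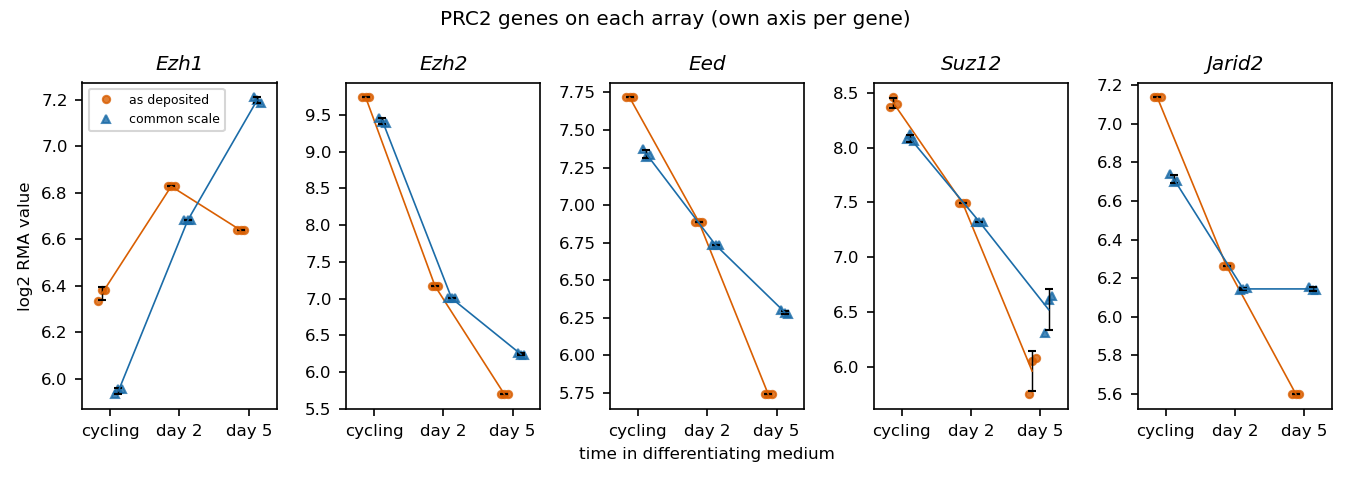
Levels of the 5 PRC2 genes (log2 RMA value, vertical axis, own range for each gene) on each array at each of the 3 time points, from the deposited values (circles) and after common scaling (triangles), with bars for mean ± SD of 3 arrays and lines joining means. Ezh2 ends at 5.70 as deposited and 6.23 to 6.26 on the common scale, while Ezh1 lies above its cycling level at both later times.

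The difference between Ezh1 and Ezh2 within an array does not move with a shift of the whole array. Only its change over time can be read, since levels of different probe sets are not comparable. It was -3.41 to -3.36 in cycling myoblasts, -0.34 at day 2, then 0.94 at day 5 as deposited. The change was 3.03 at day 2 and 4.31 at day 5 against cycling myoblasts, and 3.15 and 4.43 on the common scale. It moved further by 1.28 between day 2 and day 5 on both scales. Each of these changes had an exact two-sided permutation p of 0.1, the smallest that 3 arrays against 3 can give, and an adjusted p of 0.105 over the 42 such tests made. That test could not pass 0.05 in this design. The arrays of the 3 time points did not overlap in this difference on either scale, but the spread between replicates is understated.

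Eed and Suz12, which are noncatalytic core subunits, were both lower at each step. Eed had 7.72 on all 3 arrays in cycling myoblasts, 6.89 at day 2, then 5.74 at day 5 as deposited. After common scaling its means were 7.34 ± 0.027 in cycling myoblasts, 6.74 ± 0.00034 at day 2, then 6.29 ± 0.012 at day 5 (SD, n = 3 each). Groups did not overlap. Its log2 fold change was -0.83 and -0.61 at day 2, under 2-fold, and it fell at day 5 with -1.98 and -1.06 (limma adjusted p = 4.05e-11 on the common scale). The second Eed probe set had deposited means of 3.06 in cycling myoblasts, 3.30 at day 2, then 2.87 at day 5, below the array medians throughout. With the mean of both probe sets the day 5 log2 fold change was -1.08 as deposited and -0.61 after common scaling, so that the 2-fold call was lost.

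Suz12 had 8.37, 8.46 and 8.40 in cycling myoblasts, 7.49 on all 3 arrays at day 2, and 5.75, 6.05 and 6.08 at day 5 as deposited. After common scaling it had 8.08, 8.12 and 8.06 in cycling myoblasts, 7.32 on all 3 at day 2, and 6.31, 6.61 and 6.64 at day 5. No groups overlapped, and the SD of 0.18 at day 5 was the largest of any member in any group as deposited. Suz12 had log2 fold changes of -0.92 ± 0.087 and -0.76 ± 0.082 (SE, n = 3 each) at day 2, short of 2-fold. It fell at day 5, with -2.45 and -1.57 (limma adjusted p = 1.06e-07 and 3.90e-07).

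Jarid2 had 7.14 on all 3 arrays in cycling myoblasts, 6.26 at day 2, then 5.60 at day 5 as deposited. After common scaling its means were 6.71 ± 0.021 in cycling myoblasts, 6.14 ± 0.0037 at day 2, then 6.14 ± 0.010 at day 5 (SD, n = 3 each). The day 5 and day 2 arrays overlapped on the common scale, and both lay below cycling myoblasts on both scales. The log2 fold change at day 2 was -0.87 and -0.57, and at day 5 -1.54 and -0.57, so Jarid2 was called lower on both scales without reaching 2-fold on both. From day 2 to day 5 the log2 fold change on the common scale was -1.77e-05 ± 0.011 (SE, n = 3 each, limma adjusted p = 0.999), against -0.66 as deposited.

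The share of the day 5 change already present at day 2 differed between the PRC2 genes. On the common scale the day 2 log2 fold change was 76.0% of the day 5 value for Ezh2, 57.5% for Eed and 48.7% for Suz12, and 100% for Jarid2. As deposited these shares were 63.6%, 42.0%, 37.4% and 56.9% in the same order of genes. For Ezh1, which was higher in myotubes, the share was 169% as deposited and 58.7% after common scaling. Ezh2, Eed and Suz12 kept this order on both scales, and Jarid2 did not keep its place. Within an array, Jarid2 minus Suz12 changed by 0.91 as deposited and 0.997 after common scaling at day 5 against cycling myoblasts, and Eed minus Suz12 by 0.47 and 0.51. Both had the smallest permutation p possible, 0.1 (exact, two-sided).

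Smyd1 was the one member that rose. It had 8.01, 8.15 and 7.97 in cycling myoblasts, 10.30 on all 3 arrays at day 2 and 9.14 on all 3 at day 5 as deposited. After common scaling it had 7.69, 7.79 and 7.60 in cycling myoblasts, 10.17, 10.17 and 10.16 at day 2, and 9.60, 9.59 and 9.60 at day 5. Day 2 was highest and cycling myoblasts lowest on both scales, without overlap. At day 2 the log2 fold change was 2.26 ± 0.042 as deposited and 2.48 ± 0.041 after common scaling (SE, n = 3 each), 4.80-fold and 5.56-fold higher (limma adjusted p = 2.53e-09 and 2.97e-10). At day 5 it was 1.10 and 1.90 (limma adjusted p = 1.70e-07 and 1.19e-09). With identical deposited values at day 2 and at day 5, the SE and p of Smyd1 rest mainly on the spread of the cycling arrays. Of all tested genes, 1.42% as deposited and 1.28% on the common scale had a higher log2 fold change than Smyd1 at day 2. From day 2 to day 5 it was lower by 1.16 as deposited, with -0.57 on the common scale, so the later level was below the peak on both scales but not by 2-fold on both.

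Smyd2, which methylates Hsp90 among other proteins, was higher at day 2 on both scales. Its deposited values were 7.36, 7.45 and 7.51 in cycling myoblasts, 8.02 on all 3 arrays at day 2 and 7.20 on all 3 at day 5. After common scaling they were 6.98, 7.03 and 7.11 in cycling myoblasts, 7.84, 7.85 and 7.84 at day 2, and 7.72, 7.72 and 7.71 at day 5. Day 2 was thus highest on both scales, and cycling myoblasts and day 5 changed places. The log2 fold change at day 2 was 0.58 and 0.80, under 2-fold. At day 5 the direction depended on the scale, with -0.24 as deposited and 0.68 after common scaling. Smyd3, which methylates the kinase Map3k2 among other proteins, had 6.46 on all 3 arrays in cycling myoblasts, 6.49, 6.47 and 6.47 at day 2, and 5.85 on all 3 at day 5 as deposited. After common scaling it had 6.05, 6.03 and 6.03 in cycling myoblasts, 6.35, 6.34 and 6.33 at day 2, and 6.42, 6.40 and 6.39 at day 5. The day 5 arrays were thus the lowest as deposited and the highest after common scaling. Its log2 fold change at day 2 was 0.019 as deposited and 0.31 after common scaling. At day 5 it was -0.61 and 0.37, again opposite in sign on the scales. For these 2 genes no direction at day 5 is given.

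Smyd4 went the other way from Smyd1. It had 7.37, 7.43 and 7.43 in cycling myoblasts, 6.11, 6.19 and 6.11 at day 2, and 4.96 on all 3 arrays at day 5 as deposited. After common scaling it had 6.99, 7.02 and 7.03 in cycling myoblasts, a mean of 6.03 ± 0.043 (SD, n = 3) at day 2, and 5.44, 5.44 and 5.43 at day 5. The groups did not overlap and each later group was lower. The log2 fold change at day 2 was -1.28 as deposited and -0.98 after common scaling, just short of 2-fold. Without replicate 2 of day 2 it was -1.30 and -1.002, which passed. Smyd4 fell at day 5 with -2.45 and -1.58 (limma adjusted p = 6.01e-11 and 5.26e-11), 5.47-fold and 2.99-fold lower.

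Smyd5 had 7.40, 7.41 and 7.40 in cycling myoblasts, 6.94, 6.94 and 6.89 at day 2, and 6.10 on all 3 arrays at day 5 as deposited. After common scaling it had 7.02, 6.99 and 6.99 in cycling myoblasts, 6.78, 6.78 and 6.73 at day 2, and 6.68, 6.67 and 6.67 at day 5. It lay lower at each later time without overlap on both scales. Its log2 fold change was -0.48 and -0.23 at day 2 and -1.30 and -0.33 at day 5, so it was called lower on both scales and reached 2-fold only as deposited at day 5.

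**Figure D2:**
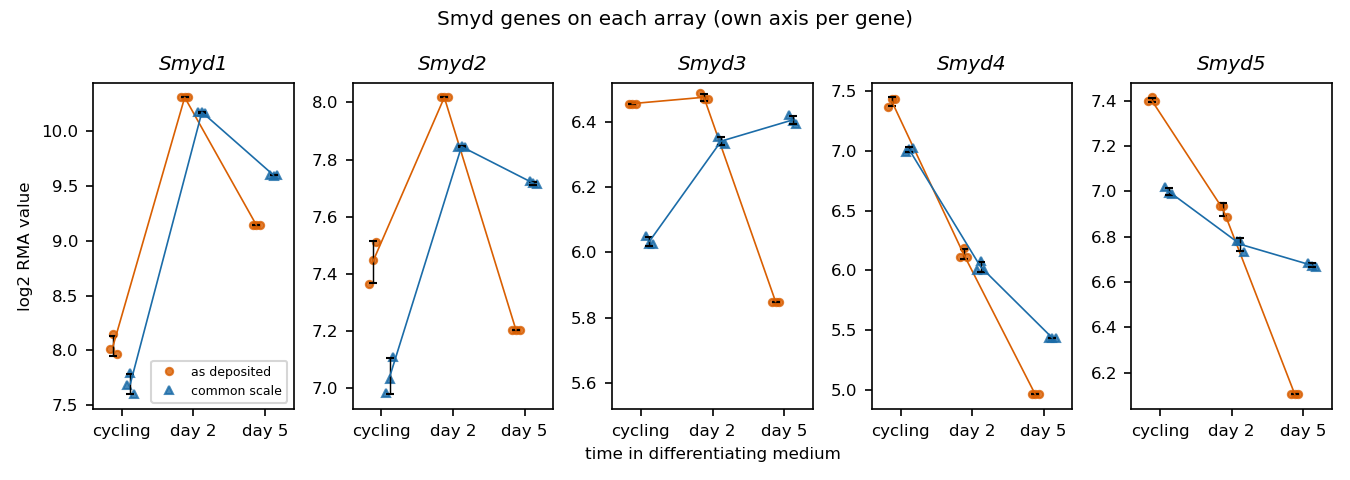
Levels of the 5 Smyd genes (log2 RMA value, vertical axis, own range for each gene) on each array at each of the 3 time points, from the deposited values (circles) and after common scaling (triangles), with bars for mean ± SD of 3 arrays. Smyd1 is highest at day 2, with 10.30 as deposited, Smyd4 and Smyd5 step down on both scales, and Smyd2 and Smyd3 part ways between the scales at day 5.

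Within an array, Smyd1 minus Smyd4 changed by 3.54 as deposited and 3.46 after common scaling at day 2 against cycling myoblasts, and by 0.013 and 0.021 between day 2 and day 5 (exact two-sided permutation p = 1 and 0.7). Smyd1 minus Smyd2 changed by 1.69 and 1.67 at day 2, the smallest of the 4 Smyd1 pairs. Against Smyd3 the change was 2.24 and 2.17, and against Smyd5 it was 2.74 and 2.71. All 4 changes at day 2 had the smallest possible permutation p of 0.1 (exact, two-sided). From day 2 to day 5 Smyd1 lost ground against Smyd2, Smyd3 and Smyd5, with changes of -0.35, -0.54 and -0.35 as deposited and -0.45, -0.64 and -0.48 after common scaling.

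**Figure D3:**
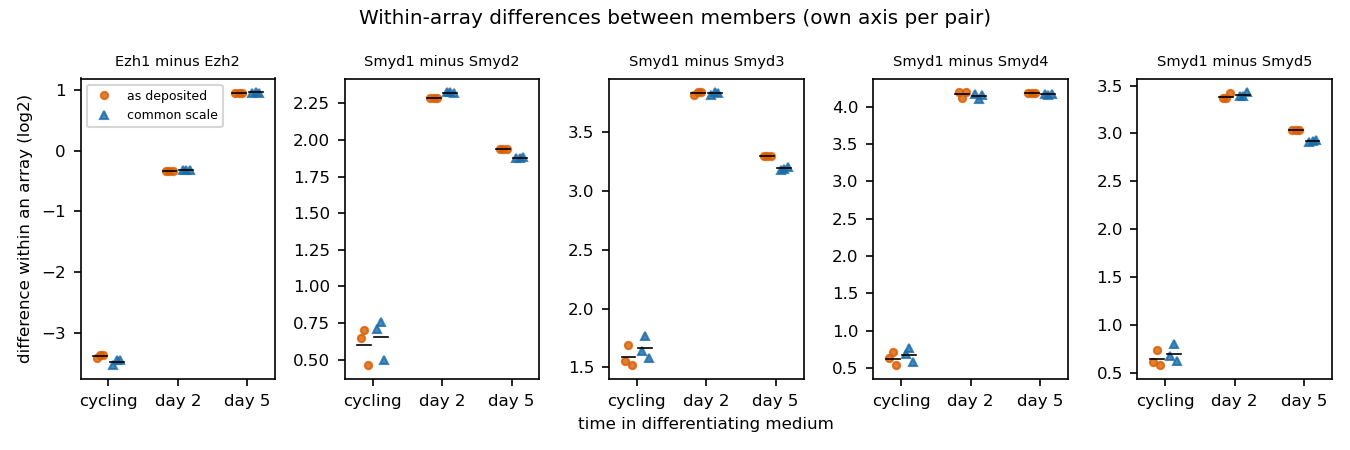
Difference in log2 value within each array between Ezh1 and Ezh2 and between Smyd1 and each other Smyd gene (vertical axis, own range for each pair), at each of the 3 time points and on both scales, with short lines for means. The scales nearly coincide, and the Ezh1 minus Ezh2 difference ends at 0.94 as deposited, against -3.41 to -3.36 in cycling myoblasts.

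Over the 10 members, 1 rose and 1 fell at day 2 against cycling myoblasts, Smyd1 and Ezh2, beside 6.04% of tested genes that rose and 8.41% that fell, 14.4% together. With no limit on size, 4 members passed as higher and 6 as lower, beside 42.8% and 37.4% of tested genes, 80.2% together. At day 5 against cycling myoblasts 1 rose, Smyd1, and 4 fell, Ezh2, Suz12, Eed and Smyd4, beside 4.44% and 12.3% of tested genes, 16.7% together. At any size 2 were called higher and 6 lower, beside 29.7% and 38.1%, 67.8% together. Between day 2 and day 5 limma called 0 of 10 as a rise or fall, beside 0.766% and 3.67% of tested genes, 4.44% together. There 0 were called higher and 7 lower at any size, the same counts as at an unadjusted p under 0.05, beside 16.2% and 40.6%, 56.8% together. The median log2 fold change of the 5 PRC2 genes was -0.87 and -0.61 at day 2, as deposited and on the common scale, beside -0.014 and 0.087 over all tested genes. At day 5 it was -1.98 and -1.06, beside -0.37 and 0.17. For the 5 Smyd genes it was 0.019 and 0.31 at day 2, and -0.61 and 0.37 at day 5.

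**Figure D4:**
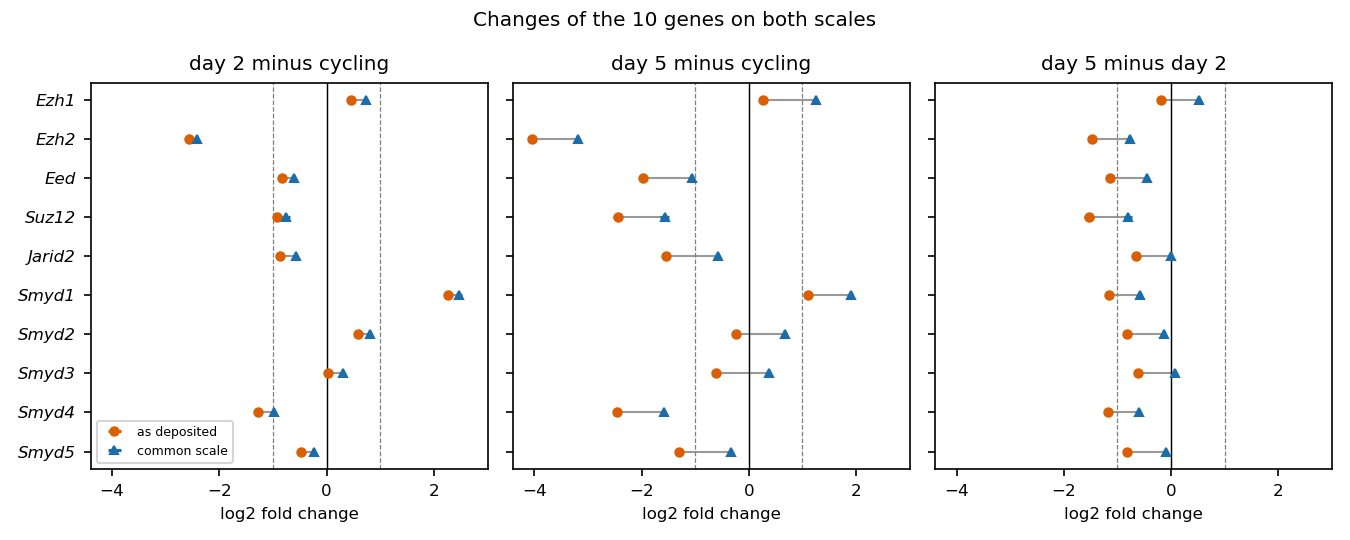
Log2 fold change (horizontal axis) of the 10 genes for day 2 minus cycling, day 5 minus cycling and day 5 minus day 2, as deposited (circles) and on the common scale (triangles), with bars for the limma SE, mostly smaller than the symbols, and dashed lines at 2-fold. Ezh2 lies at -4.04 and -3.18 at day 5, and grey lines that cross 0 mark genes whose direction depends on the scale.

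Of 8 genes for other PRC2 subunits, listed as accessory genes, 0 rose and 0 fell at day 2 or at day 5 against cycling myoblasts. Of all tested genes 6.04% rose and 8.41% fell at day 2, and 4.44% and 12.3% at day 5. At any size limma gave 1 accessory gene as higher and 4 as lower at each time, the same counts as at an unadjusted p under 0.05. Beside that, 42.8% and 37.4% of tested genes were higher and lower at day 2, and 29.7% and 38.1% at day 5. The accessory genes are named here after their values were seen. The histone-binding subunit gene Rbbp7 had log2 fold changes of -0.93 and -0.80 at day 2 and -1.37 and -0.63 at day 5, Aebp2 had -0.56 and -0.35, then -1.43 and -0.50, and Rbbp4 had -0.23 and -0.068, then -1.12 and -0.33. Phf19 was lower at day 2, with -0.16 and -0.14, and higher at day 5, with 0.17 and 0.60. Mtf2 was called lower at day 5, with -1.63 and -0.71. Their median log2 fold change at day 5 was -0.98 as deposited and -0.097 after common scaling, beside -0.37 and 0.17 over all tested genes. The 2 histone H3 lysine 27 demethylase genes, which remove the PRC2 mark, did not reach 2-fold on both scales at either time. Kdm6b had log2 fold changes of 0.52 and 0.80 at day 2, and Kdm6a of 0.18 and 0.47, both called higher at any size. At day 5 Kdm6a had -1.14 and -0.21, and Kdm6b had -0.45 and 0.49, opposite in sign. Lcor, whose locus encodes a PRC2 accessory protein, was higher at day 2 with 0.91 and 1.16, and fell between day 2 and day 5 with -1.75 and -1.02.

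Some forms of Polycomb repressive complex 1, PRC1, read the PRC2 mark. Of 22 listed PRC1 genes, of any form, 20 were tested. Of these, 0 rose and 1 fell at day 2, beside 6.04% and 8.41% of tested genes. The same counts held at day 5, beside 4.44% and 12.3%. The one that fell at both times was Cbx2, a chromodomain subunit, with log2 fold changes of -1.74 and -1.35 at day 2 and -2.47 and -1.70 at day 5. Phc3, a Polyhomeotic subunit, fell between day 2 and day 5 with -1.56 and -1.04. At any size 5 PRC1 genes of 20 were called higher and 7 lower at day 2, beside 42.8% and 37.4% of tested genes. At day 5 it was 1 higher and 11 lower, beside 29.7% and 38.1%.

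Among other lysine methyltransferase genes, 26 of 28 were tested and 0 rose, beside 6.04% of tested genes at day 2 and 4.44% at day 5. At day 2 the one that fell, beside 8.41% of tested genes, was Suv39h2, which methylates histone H3 lysine 9, with -2.36 and -2.05. At day 5 there were 6 that fell, beside 12.3% of tested genes. Suv39h2 (log2 fold changes of -2.94 and -2.40), the histone methyltransferase gene Nsd2 (-2.69 and -1.84) and the Trithorax-group gene Kmt2a (-2.26 and -1.43) changed most. The median of the 26 at day 5 was -1.12 as deposited and -0.34 after common scaling, beside -0.37 and 0.17 over all tested genes.

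The partners and substrates of Smyd proteins went both ways, with 6 of 9 tested. At day 2 there were 3 that rose and 1 that fell, beside 6.04% and 8.41% of tested genes. Unc45b, the myosin chaperone of striated muscle, rose with log2 fold changes of 3.65 and 3.76, and titin, Ttn, rose with 2.92 and 3.18. The retinoblastoma gene Rb1 rose with 1.13 and 1.38. Hsp90aa1, a form of the Hsp90 chaperone, fell with -1.02 on both scales. At day 5 against cycling myoblasts Unc45b (2.43 and 3.25) and Ttn (2.05 and 2.95) rose, and Map3k2, a Smyd3 substrate (-2.94 and -2.25), and Hsp90aa1 (-2.72 and -2.12) fell. Between day 2 and day 5 Map3k2, Rb1 and Hsp90aa1 fell, with -1.72 and -1.35, -1.87 and -1.14, and -1.69 and -1.10. The cycling markers Top2a and Mki67, given for size, had -6.16 and -5.99, and -5.48 and -5.34, at day 2.

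**Figure D5:**
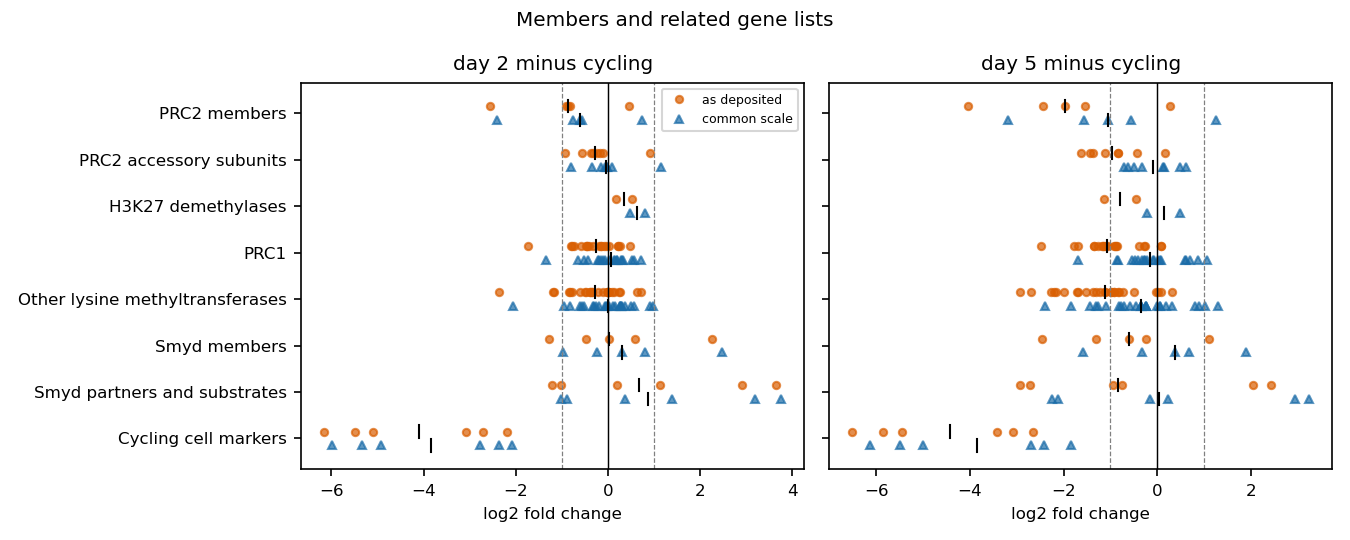
Log2 fold change (horizontal axis) of each tested gene in the PRC2 and Smyd sets and related lists for day 2 minus cycling (left) and day 5 minus cycling (right), as deposited (circles) and on the common scale (triangles), with black bars for list medians and dashed lines at 2-fold. The PRC2 genes have a median of -1.98 as deposited at day 5, and all 6 cycling cell markers lie left of -1.

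The genes with the pattern most like a member were found by the summed absolute difference of the day 2 and day 5 log2 fold changes against cycling myoblasts on the common scale, over 3 time points of 3 arrays. For Ezh2 they were Zfp36l2 (distance 0.0593), Prkar2b (0.108) and Prrg4 (0.137), and 3 genes in all lay within 0.2. For Smyd1 they were F2 (0.0539), Ldlrad3 (0.0556) and Cyp1b1 (0.111), with 8 genes within 0.2. For Ezh1 the nearest were Hoxd3os1 (0.0213), Etfdh (0.0256) and H2-M10.2 (0.026), but 177 genes lay within 0.2.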

How the data were processed

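Log2 RMA expression values were deposited by the authors for 35556 probe sets on 9 Affymetrix arrays, and per the series' design text and the submitters' processing notes they ran RMA on each set of replicates. The RMA version is not given in any source used here. Identical values showed the sets to be the time points: within a time point 47.9% (cycling myoblasts), 60.2% (day 2) and 56.7% (day 5) of probe sets were identical on all 3 arrays within a tolerance of 1e-06. Time point and normalization set cannot be told apart, and the spread between replicates is understated. No scanner files or background measures were used, so precision is limited by the number of arrays.

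In the platform annotation 21789 probe sets had 1 gene symbol, 1621 had several and 12146 had none. Entrez identifiers of 21698 matched RefSeq's GRCm38.p6 table (0 symbols changed). Of probe sets naming 1 gene, the highest-mean one was used. Genes above the 30th percentile of an array on at least 3 arrays were tested. Quantile normalization and one linear model with a mean per time point used limma 3.58.1 (lmFit, eBayes) in R 4.3.3, with Benjamini-Hochberg adjustment over 16582 genes. The step was run on simulated data with independent noise on every array, hence without identical replicates. That run does not bear on p-values from identical replicates. By rule, all members were named, with the 3 nearest genes by distance to Ezh1, Ezh2 and Smyd1. Up to 3 rises and 3 falls per list and contrast were also named, those with the largest change on the smaller scale. Outside that rule, accessory genes called at any size were named after their values were seen. Both demethylase genes and the listed cell type markers with a probe set were named too. Members and lists were chosen with earlier results of these data known. Same-numbered replicates did not deviate together (r of -0.0038 to 0.041 over 9 pairs), so the numbers were not taken as pairs. Alternatives covered scaling, probe set choice, filters, limma settings, the replicate block and leaving out each array.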

Additional observations from a re-analysis of the deposited data

How the results depend on the processing

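Over 17 alternatives the calls of Ezh2 and Smyd1 at both times against cycling myoblasts were the same in all 17. So were those of Suz12 and Smyd4 at day 5, and the call of Eed at day 5 was the same in 16. A call on both scales holds on either scale alone. The filters, limma settings and replicate block left the log2 fold changes of these genes unchanged. Averaging probe sets could act only on Eed, with its second probe set, where the call was lost. Leaving out an array moves no mean of identical deposited values. The median shift, and leaving out arrays where values differed, could change these calls and did not. The 17 are thus not 17 separate tests. At day 2 the members that fell were 2 rather than 1 with the values as deposited alone, with a median shift in place of quantile normalization and without replicate 2 of day 2, where Smyd4 joined. The range was 1 to 2 when leaving out each array. At day 5 against cycling myoblasts 2 members rose on the common scale alone, where Ezh1 joined. There 6 members fell as deposited alone, where Jarid2 and Smyd5 joined, and 5 with the median shift, where Jarid2 joined, rather than 4. Between day 2 and day 5, 5 members fell as deposited alone and 2 with the median shift, rather than 0. Of all genes at day 5 against cycling myoblasts, 736 rose and 2040 fell on both scales, 736 rose and 4840 fell as deposited alone, and 1960 rose and 2040 fell on the common scale alone. With the median shift 3336 fell. From day 2 to day 5, 461 rose on the common scale alone, and 2548 fell as deposited alone (1287 with the median shift). The cause was not tested, beyond the scale that defines each alternative.

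The direction turned for Ezh1 between day 2 and day 5 (0.52 on the common scale, 0.089 with the median shift), for Smyd2 at day 5 against cycling myoblasts (0.68 and 0.12), and on the common scale alone for Smyd3 at day 5 against cycling myoblasts (0.37) and against day 2 (0.065). Leaving out each array turned no member's direction in the 270 fold changes as deposited so obtained. That was largely fixed in advance, since 20 of the 30 sets of 3 deposited values were identical. Leaving out 1 of 3 identical values cannot move their mean. On the common scale leaving out an array turned the direction of Jarid2 between day 2 and day 5. Its log2 fold change was -1.77e-05 with all arrays and up to 0.0040 without replicate 3 of day 5. With the replicate block 1 member rose and 1 fell at day 2 and 1 rose and 4 fell at day 5, as without it, and it changed no member's call. The labels do not say that replicate numbers pair samples. Without a background measure, low values may be background.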
